A study of Homo sapiens and Mus musculus with 18 samples.

Results

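The mouse liver mesothelium library was set against the gut, heart and lung libraries of the same series, gene by gene. The organ was taken from the sample title and the matching column name, and genes were kept where at least 1 of the 4 libraries reached 5 CPM (a gene's count scaled to a library total of 1000000 counts). This kept 13367 of the 37991 mouse gene identifiers listed, and the liver library was 1 of the 18 samples of the series. All 4 organs came from embryos that carried Wt1creERT2/+, a tamoxifen-inducible Cre recombinase knocked into the Wt1 locus, and Rosa26tdT/+, a red fluorescent reporter behind a loxP-flanked stop. Dams were injected with tamoxifen 3 times at intervals of 24 hours from embryonic day E12.5. Per the labels, the embryos were harvested at E15.5, the surface of each organ was digested with collagenase IV and trypsin, and tdTomato-positive cells were sorted. The column names of the count table give E14.5 and the series' design text calls the mice neonatal, so the stage is uncertain. The number of embryos behind each library is not given in the sources used here.

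Mesothelium is the single layer of flattened epithelium that covers the organs of the body cavities, and Wt1 encodes a transcription factor of this layer. In the fetal liver it lies directly on the hepatic parenchyma, arises with the septum transversum mesenchyme, and is known as a source of hepatic stellate cells. The fetal liver also makes plasma proteins and is the main site of red cell formation before birth. The reporter stays on in descendants of labelled cells, so the sorted fraction can hold cells that had left the surface layer.

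The files give mouse genes by Ensembl identifier only and do not pair these with symbols. The gene name table used here is human, and 0 of the 37991 identifiers matched it. The markers set for this comparison, Alb and Afp for hepatocytes and their precursors and Hbb-bs for red cells, could therefore not be looked up by symbol. The same held for Wt1 and any other mesothelial gene. Any of these genes may be among the identifiers and groups described below. The label of the library was not checked against its markers, and the part that RNA of hepatocytes, blood cells or other cells might have in the differences was not tested. With bulk RNA, fewer cells of a type and less RNA per cell cannot be told apart. Only the 2 identifiers with the highest and the 2 with the lowest liver ratio are named, and the other genes are described as groups.

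Each organ had 1 library, so no difference below has a replicate check and none has a p-value. The liver library held 27398932 counts, gut 28752101, heart 31502905 and lung 21541758. A level of 5 CPM corresponds to 137 counts in the liver library and to between 108 and 158 counts in the others. The most counted gene took 2.00% of the liver library and the 10 most counted 9.13%, within the ranges of 1.32% to 2.03% and 7.01% to 10.0% over all 4 libraries.

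Most genes differed little between liver and the other organs. Of the 13367 genes, 11832 (88.5%) lay within 2-fold of the mean of gut, heart and lung, and 11003 (82.3%) reached 5 CPM in all 4 libraries. The ratio was taken as log2 of liver CPM plus 0.5 over the mean CPM of the other 3 organs plus 0.5, which understates the change of genes with low values. Its median over all genes was 0.00, and 90% of genes fell between -1.38 and 0.83. A gene was called higher or lower at 4-fold, a log2 ratio of 2 or more or of -2 or less. By this rule 298 genes (2.23%) were higher in liver and 354 (2.65%) were lower. With the geometric mean of the other organs the split was 344 higher and 138 lower, and with heart left out of the mean 320 higher and 251 lower. The 3 genes nearest to the limit of 5 CPM on its inner side had a highest level of 5.0002 CPM, and the 3 nearest outside it 4.97 to 4.98 CPM.

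**Figure D1:**
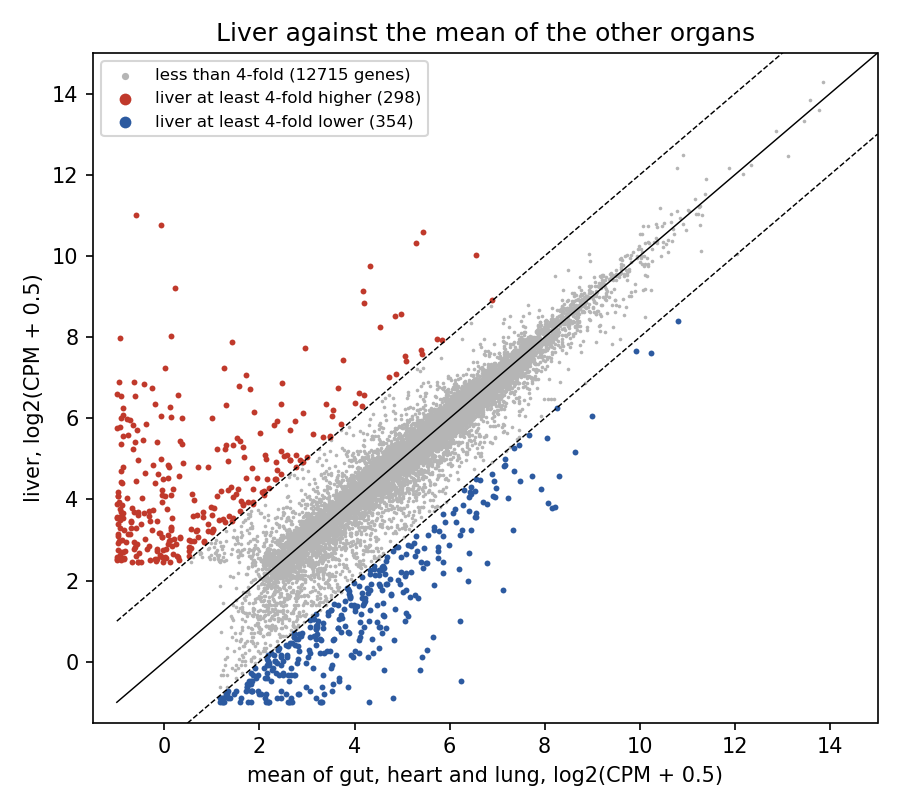
Liver level against the mean level of gut, heart and lung, both as log2(CPM + 0.5), with 1 point per gene for 13367 genes and 1 library per organ. The solid line marks equal levels and the dashed lines 4-fold. Of the 298 higher genes 180 were at least 8-fold from the mean of the other organs, and of the 354 lower genes 119.

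The higher and the lower genes differed in how far they lay from the mean of the other organs. At 2-fold, 556 genes were higher and 979 lower. At 8-fold the order was the opposite, with 180 higher and 119 lower. At 16-fold 107 genes were higher and 31 lower, and at 32-fold 58 and 9. At 64-fold 32 genes were higher and 1 was lower. A high level in 1 other organ is diluted in the mean, which limits how low the ratio of such a gene can fall. Folds were graded in this way for liver only, so the contrast is not shown to be particular to liver.

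**Figure D2:**
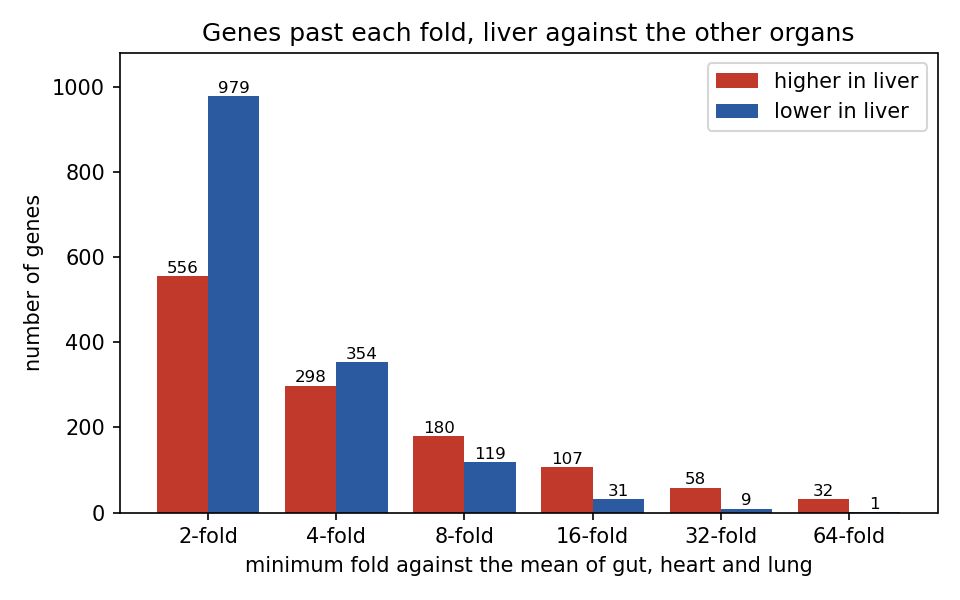
Number of genes, as bars from 0, past each fold of liver against the mean of gut, heart and lung, higher in red and lower in blue. Lower genes outnumber higher ones at 2-fold (979 against 556), and higher genes outnumber lower ones from 8-fold on (180 against 119, and 32 against 1 at 64-fold). Folds were graded in this way for liver only.

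The 2 genes with the highest liver ratio had few counts in the other libraries. ENSMUSG00000029368 was at 2052 CPM in liver, where it was the 25th most counted gene, against 0.313 CPM in gut, 0.0317 in heart and 0.139 in lung. These levels rest on 56215 counts in liver and on 9, 1 and 3 counts in gut, heart and lung. Its log2 ratio was 11.60, and its rate in liver was 12910 times that of the 3 other libraries pooled, with a 95% exact counting interval of 7549 to 24247. ENSMUSG00000054932 was at 1729 CPM in liver, the 32nd most counted gene, against 0.522 CPM in gut, 0.444 in heart and 0.371 in lung. It had 47367 counts in liver and 15, 14 and 8 in gut, heart and lung, a log2 ratio of 10.84 and a pooled ratio of 3822 (2772 to 5429). These intervals, from the binomial distribution of the counts, cover counting error only and not the spread between embryos or sorts. All named genes, higher and lower, were picked for their extreme ratios in these same counts, which the intervals do not allow for. Together the 2 genes held 17.3% of all liver CPM in the group of 298 higher genes.

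As a group, the 298 higher genes took 2.19% of the liver library, against 0.123% of gut, 0.140% of heart and 0.115% of lung. Their median level was 16.9 CPM in liver, 0.696 in gut, 0.444 in heart and 0.534 in lung. The genes were chosen for a high liver level in these same libraries, so these shares and medians follow largely from the rule. In 144 of the 298 (48.3%) each of the other organs was under 1 CPM, and in 222 (74.5%) no other organ reached 5 CPM. Those 222 entered the comparison through liver alone. Over all genes compared, liver alone reached 5 CPM for 356 (2.66%). Another 24 of the 298 genes (8.05%) were at 5 CPM or more in all 3 other organs and were still called higher in liver. The liver level was at least 4-fold above that of each other organ in 232 of the genes called higher (77.9% of the 298, and 1.74% of all genes compared). A set of 8 genes had 0 counts in all 3 other libraries. With 3 counts over the 3 libraries as the floor, these were at least 141-fold to at least 2632-fold higher in liver.

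The liver counts of this group were concentrated in few genes. The 10 with the most counts held 48.6% of its liver CPM, and the 37 at 100 CPM or more held 71.5%. CPM is not scaled to gene length, so these shares are shares of counts and not of transcripts. Among those 37 genes the median level in gut was 2.66% of the liver level, in heart 5.10% and in lung 2.09%. Single genes among the 37 ranged from 0% up to 43.8% in gut, 46.3% in heart and 42.7% in lung, and in 10 of them each other organ was under 1% of liver. The 99 genes between 20 and 100 CPM had medians of 2.61% in gut, 3.54% in heart and 2.64% in lung. For the 162 genes between 5 and 20 CPM they were 5.97%, 3.06% and 3.78%. Low levels in the other organs are built into the choice of these genes.

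The organ with the next highest level was gut for 145 of the 298 genes (48.7%), lung for 80 (26.8%) and heart for 73 (24.5%). Over all 13367 genes, gut was the highest of the 3 in 46.3%, heart in 29.2% and lung in 24.5%. The higher genes therefore did not stand far from the background in which other organ came next.

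The 354 lower genes had a different make-up. Their median level was 1.31 CPM in liver, 5.95 in gut, 17.8 in heart and 4.94 in lung. Heart had the highest level in 202 of them (57.1%), against 29.2% over all genes, gut in 82 (23.2%) and lung in 70 (19.8%). In 201 of the 354 (56.8%) a single organ held at least 80% of the summed CPM of the 3, against 3.81% of all genes. The rule itself favours such genes, because a high level in 1 organ raises the mean.

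In the 202 genes led by heart, the median was 49.2 CPM in heart, 2.92 in gut, 2.97 in lung and 1.97 in liver. In 150 of these 202 genes heart was more than 4-fold above both gut and lung. The 82 genes led by gut had medians of 19.1 CPM in gut, 0.857 in heart, 1.69 in lung and 0.712 in liver. The 70 led by lung had 25.6 CPM in lung, 3.10 in gut, 1.46 in heart and 1.00 in liver. In each of these 3 sets the median of liver lay nearer to the medians of the 2 organs that did not lead than to that of the leading organ. This follows largely from how the sets were made, with liver chosen low and the leading organ the highest. It is therefore not a result about liver. Liver had the lowest level of the 4 in 193 of the 354 genes (54.5%), against 2739 of all 13367 genes compared. The 354 were chosen for a low liver level, which raises this share. In 14 of them (3.95% of the 354, and 0.105% of all genes compared) liver was at least 4-fold below each other organ.

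**Figure D3:**
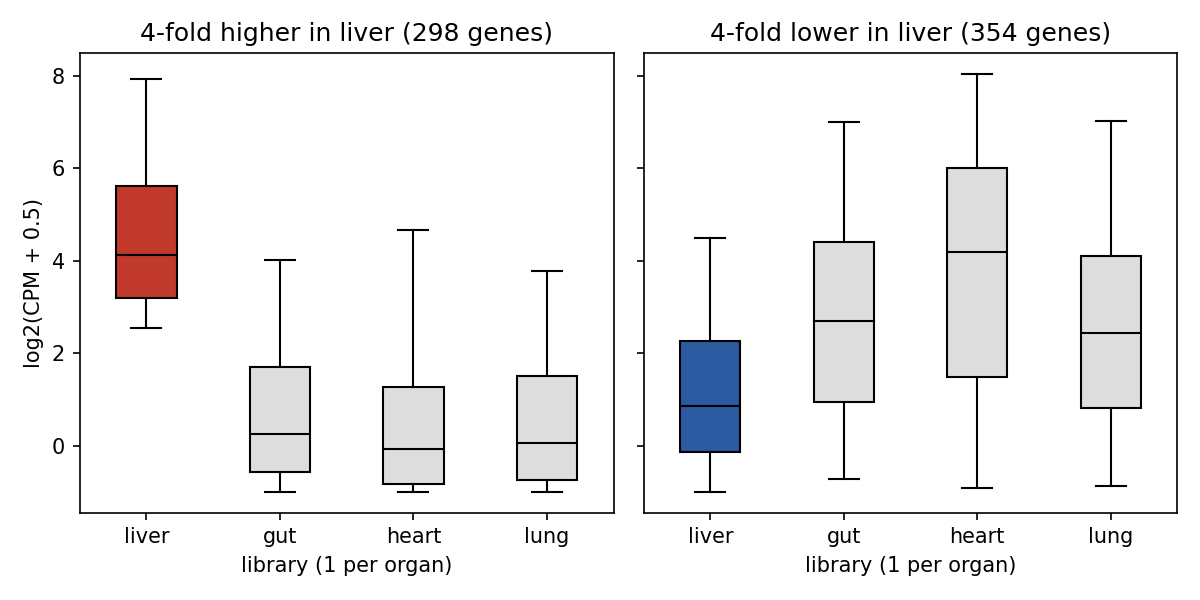
Levels of the 298 genes called higher (left) and the 354 called lower (right) in each library, as log2(CPM + 0.5), with 1 library per organ. Boxes span the quartiles over genes with the median as a line, and whiskers run from the 5th to the 95th percentile. On the left the other 3 organs have medians of 0.444 to 0.696 CPM. On the right heart, at 17.8 CPM, stands above gut and lung. Both groups were chosen by these same levels.

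Both of the named lower genes were led by a single organ. ENSMUSG00000068614 was at 215 CPM in heart, 5.80 in lung, 4.63 in gut and 0.219 in liver, with 6 counts in liver. Its log2 ratio was -6.72, and without heart in the mean it was -2.99. Its rate in liver was 0.00255 times the pooled rate of the other libraries (95% exact counting interval 0.000934 to 0.00554). ENSMUSG00000022097 was at 82.1 CPM in lung, with 1769 counts, against 1 count in gut, 0 in heart and 1 in liver. Its log2 ratio was -5.70, with a pooled ratio of 0.00169 (4.27e-05 to 0.00941), and it rested on lung alone: without lung the log2 ratio was 0.052. This gene was thus near 0 in liver, gut and heart alike.

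Of the 354 lower genes, 19 had 0 counts in liver. With 3 counts in the liver library as the floor, their pooled rate in the other organs was at least 12.6-fold to at least 203-fold higher than in liver.

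Genes were also counted by which organs reached 5 CPM. Liver alone reached 5 CPM for 356 genes (2.66%), against 295 for gut alone, 312 for heart alone and 136 for lung alone. Liver alone stayed under 5 CPM, with the other 3 above, for 113 genes (0.845%), against 80 for gut, 347 for heart and 148 for lung. In liver and gut the first number was the larger, and in heart and lung the second.

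Liver was also set beside each organ singly. It was at least 4-fold higher than heart for 545 genes (4.08%) and lower for 473 (3.54%). Against gut 356 genes were higher (2.66%) and 300 lower (2.24%). Against lung 400 were higher (2.99%) and 187 lower (1.4%). Across the 13367 genes, Spearman's rho of the liver levels was 0.922 with lung, 0.916 with gut and 0.878 with heart, and Pearson's r of log2(CPM + 0.5) was 0.885, 0.874 and 0.832. Genes are not independent replicates, and the libraries share the gene set, so these values describe the libraries only. The pair of gut and lung, with rho of 0.942 and 458 genes (3.43%) past 4-fold, was closer than liver was to any organ, where 587 genes (4.39%) for lung, 656 (4.91%) for gut and 1018 (7.62%) for heart were past 4-fold. Heart was about as far from the other organs as from liver, with 1006 genes (7.53%) past 4-fold against gut (rho 0.882) and 939 (7.02%) against lung (rho 0.888).

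Each organ was also set against the mean of the other 3 in the same way; these comparisons share libraries and are not independent. Heart had 390 genes (2.92%) higher and 643 (4.81%) lower, gut 201 (1.5%) and 425 (3.18%), and lung 110 (0.823%) and 543 (4.06%). Liver, with 298 and 354, was thus second to heart in higher genes and had the lowest number of lower genes of the 4 organs. Of the genes called higher, 77.9% were at least 4-fold above each other organ in liver, 67.4% in heart (263 genes, 1.97% of all genes compared), 60.7% in gut (122 genes, 0.913%) and 53.6% in lung (59 genes, 0.441%). At least 4-fold below each other organ were 14 genes in liver (0.105%), 16 in gut (0.12%), 18 in lung (0.135%) and 127 in heart (0.95%). The difference between organs in these numbers has no replicate check.

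**Figure D4:**
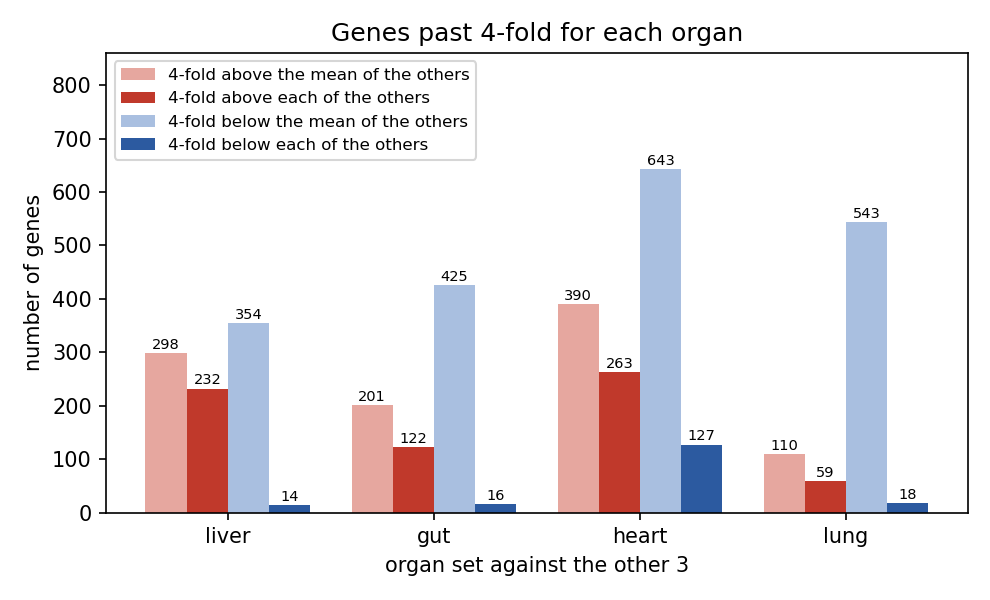
Number of genes, as bars from 0, at least 4-fold above or below the mean of the other 3 organs (pale) and each of them (dark), for each organ in turn with 1 library per organ. In liver 232 of 298 higher genes but 14 of 354 lower genes were past 4-fold against each other organ. The order was the same in gut (122 of 201 against 16 of 425) and heart (263 of 390 against 127 of 643). It also held in lung (59 of 110 against 18 of 543), so it is not particular to liver.

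The calls were spread unevenly over levels. Among the 987 genes with a mean of the 4 libraries under 5 CPM, 142 (14.4%) were higher in liver and 102 (10.3%) lower. Among the 4061 genes with a mean of 5 to 20 CPM, 103 (2.54%) were higher and 141 (3.47%) lower. Among the 6123 genes from 20 to 100 CPM, 39 (0.637%) were higher and 87 (1.42%) lower, and among the 2196 genes at 100 CPM or more, 14 (0.638%) and 24 (1.09%). A gene whose mean is under 5 CPM entered only by reaching 5 CPM in at least 1 organ, so the first set is chosen to differ between organs. At 100 CPM or more, 95.2% of genes lay within 2-fold of the mean of the other organs.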

How the data were processed

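Poly-A RNA of sorted mouse cells from 4 organs was sequenced, with 1 library per organ. The deposited table holds whole-number counts per mouse Ensembl gene ID. The tools named for these samples, per the submitters' processing notes, include featureCounts, Subread 1.4.2, TopHat2 2.0.13 and Bowtie2 2.2.9, without their roles. The notes list hg19 only. A mouse build, an annotation or a strand setting is not given in the sources used here.

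From these counts CPM were computed over total counts of 21541758 to 31502905, with a minimum of 5 CPM in at least 1 organ and a prior of 0.5 CPM in log2 ratios. Intervals were exact binomial (scipy 1.17.1) at 95%, and a count of 0 was given a floor of 3 counts. The ratio script was tested on simulated data with planted changes and counting error only, which checks the code and not the calls. Alternatives used scaling factors of edgeR 4.0.16 (TMM) and DESeq2 1.42.0 in R 4.3.3; neither tool was used for a test. Figures were drawn with matplotlib 3.10.9. The planned gene lists were left out, as no identifier had a symbol. The rule for named genes then allows at most 2 higher and 2 lower identifiers. Those with the highest and lowest log2 ratios were taken. The comparison and lists were chosen with earlier results of these data known. The other 14 samples were not analysed here.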

Additional observations from a re-analysis of the deposited data

How the results depend on the processing

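The count of higher genes stayed within 1.5 times of 298 under 11 of 12 alternatives (207 to 390) and the count of lower genes within 1.5 times of 354 under 8 of 12 (251 to 430). Of these alternatives, a minimum of 1 CPM and no filter gave the same counts, 390 higher and 363 lower. With the prior of 0.5 CPM, a 4-fold call needs more than 1 CPM in at least 1 library. The counts of these alternatives could therefore not differ, and they are not separate checks. Such totals do not show whether the same genes were called. Shared calls were 289 higher and 351 lower with TMM scaling, and 287 and 351 with DESeq2 size factors. With a minimum of 20 CPM, which leaves fewer genes, 136 were higher and 226 lower. The lower count was 189 with a prior of 2 CPM, 138 with the geometric mean of the other organs and 14 when each other organ had to be passed. The higher share of all calls, 45.7%, was 44.1% with TMM scaling, 43.9% with DESeq2 size factors, 71.4% with the geometric mean and 56.0% without heart in the mean. No scaling moved the median of all genes by over 0.1. Without lung the log2 ratio of ENSMUSG00000022097 was 0.052, a change of sign. The library total without hepatocyte and blood genes and the medians of gene lists were not run, since no identifier had a symbol. No paired analysis was possible because each organ had 1 library. Genes under 0.109 CPM in liver rest on fewer than 3 counts.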
